A study of Mus musculus with 6 samples.

Results

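The chemokine ligand genes described here, 10 in number, were measured in the mouse mammary carcinoma line 4T1 under the DNA-damaging compound LP-184. They were Cxcl10, Ccl5 and Cxcl16, which attract T cells, Cxcl1, Cxcl2, Cxcl3, Cxcl5, Ccl2 and Ccl7, which attract neutrophils and monocytes, and Ccl20, which attracts cells that bear the receptor CCR6. The genes were chosen by name, and all 10 were found among the 12656 genes of the deposited expression table. 4T1 is an established line that arose in a BALB/c mouse and is widely used to model triple-negative disease. One group held 3 libraries of cells given the solvent DMSO, and the other held 3 libraries of cells given LP-184 for 48 h. The sources used here state no time for the DMSO cells. No gene was edited in either group, and the sources used here give no dose of LP-184. Polyadenylated RNA was sequenced, with 18864368 to 22471753 reads per library over the genes of the table. Levels are given in CPM, reads scaled by the library size of the authors' processing, recovered from the deposited log2 CPM. Separate cultures are not stated for the replicates, so the spread behind each p-value is that of these libraries and may be technical.

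Chemokines are small secreted proteins that guide leukocytes along a concentration gradient by binding receptors coupled to G proteins. In tumours, ligands of CXCR3 and CXCR6 are known for drawing in T cells and natural killer cells, whereas ligands of CXCR2 draw in neutrophils and ligands of CCR2 draw in monocytes. Their genes are short and lie in clusters, and many are switched on within hours by the transcription factor NF-kB, some of them together with interferon-activated factors that bind the interferon-stimulated response element (ISRE).

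The stretches before the transcription starts are shown because they carry the binding motifs by which these genes are usually grouped. RefSeq's promoter table, on GRCm38.p6, held 5 of the 10 members, and the 250 bases before the annotated start of each are printed 5′ to 3′ on the gene's own strand. On both strands, 4 motifs were searched: an NF-kB motif (GGGNNNTTCC), an ISRE motif (GAAANNGAAA), an AP-1 motif (TGANTCA) and a TATA box (TATAAA). Capitals mark every match to the first 3, and neighbouring or overlapping matches run together. The windows are chr5:92348890-92349139 (reverse strand) for Cxcl10, chr1:83116516-83116765 for Ccl20, chr5:90903649-90903898 for Cxcl2, chr5:90890995-90891244 for Cxcl1 and chr5:90785851-90786100 for Cxcl3, the last 4 on the forward strand. They are reference sequence, and the bases that 4T1 cells carry were not analysed here. Distances are counted from the start in the promoter table, which differs from the gene positions given below. Those positions put the starts of Cxcl2 (90903871) and Cxcl1 (90891241) inside their windows, so the distances depend on the annotation.
Cxcl10: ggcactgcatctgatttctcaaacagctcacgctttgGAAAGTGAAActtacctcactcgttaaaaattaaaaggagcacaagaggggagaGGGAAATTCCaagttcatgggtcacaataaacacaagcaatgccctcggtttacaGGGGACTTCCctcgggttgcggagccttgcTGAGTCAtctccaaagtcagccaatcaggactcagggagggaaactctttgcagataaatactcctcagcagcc
Ccl20: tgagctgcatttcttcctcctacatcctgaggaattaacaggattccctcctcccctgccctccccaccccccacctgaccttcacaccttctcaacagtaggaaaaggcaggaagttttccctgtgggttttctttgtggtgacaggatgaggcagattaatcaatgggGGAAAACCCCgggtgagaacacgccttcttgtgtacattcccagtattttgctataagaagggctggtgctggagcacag
Cxcl2: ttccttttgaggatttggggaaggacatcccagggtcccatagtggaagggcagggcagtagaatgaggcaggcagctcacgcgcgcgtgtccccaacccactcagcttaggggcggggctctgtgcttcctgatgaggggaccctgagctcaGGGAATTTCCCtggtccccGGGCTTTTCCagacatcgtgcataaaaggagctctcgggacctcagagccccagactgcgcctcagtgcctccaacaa
Cxcl1: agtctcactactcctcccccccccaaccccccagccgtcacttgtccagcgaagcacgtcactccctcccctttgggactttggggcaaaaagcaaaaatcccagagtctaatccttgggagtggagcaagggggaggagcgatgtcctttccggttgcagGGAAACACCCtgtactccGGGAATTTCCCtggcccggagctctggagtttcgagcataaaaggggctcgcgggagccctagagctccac
Cxcl3: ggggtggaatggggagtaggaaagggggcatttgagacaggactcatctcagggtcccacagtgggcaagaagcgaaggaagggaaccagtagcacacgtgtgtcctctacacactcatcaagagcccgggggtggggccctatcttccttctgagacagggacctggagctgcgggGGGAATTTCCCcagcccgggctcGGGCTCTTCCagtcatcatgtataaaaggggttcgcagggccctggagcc

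Each of the 5 windows held the NF-kB motif, which was found in 4.65% of the 32851 windows of the table. Cxcl10 had 2 separate matches, GGGAAATTCC from 159 to 150 bases and GGGGACTTCC from 104 to 95 bases before the start. It alone among the 5 held the ISRE motif, GAAAGTGAAA from 213 to 204 bases before the start, and 2.98% of all windows held it. The AP-1 motif TGAGTCA lay from 74 to 68 bases before the start of Cxcl10 and was absent from the other 4 windows, against 6.75% of all windows with a match. Cxcl1, Cxcl2 and Cxcl3 shared the run GGGAATTTCCC, which matches the NF-kB motif on both strands and ended 61, 87 and 63 bases before their starts. Ccl20 had 1 match, GGAAAACCCC, on the opposite strand from 80 to 71 bases before the start. Both motifs, NF-kB and ISRE, stood in 0.11% of all windows. The letters TATAAA were in the Cxcl3 window alone of the 5, from 30 to 25 bases before the start, and in 12.4% of all windows. A match describes letters and not a bound site. No window was available for Ccl5, Cxcl16, Cxcl5, Ccl2 and Ccl7. Cxcl10 was thus the only T cell attracting gene with a window, and the classes cannot be compared by their motifs.

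**Figure D1:**
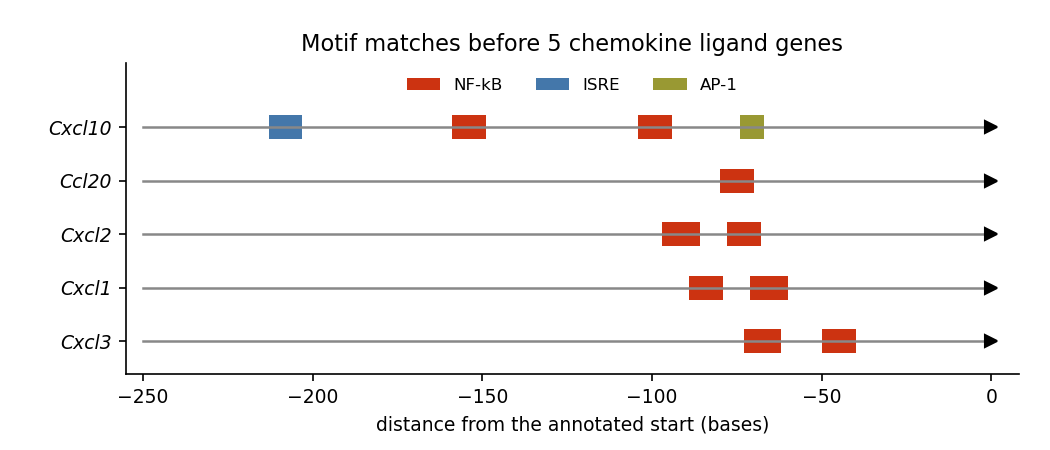
Positions of motif matches in the 250 bases before the annotated start of 5 chemokine ligand genes, with the start at 0 and blocks for the NF-kB, ISRE and AP-1 motifs. All 5 genes have an NF-kB block within 104 bases of the start, and the ISRE and AP-1 blocks are in Cxcl10.

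All 3 T cell attracting genes were higher with LP-184, while the 6 neutrophil and monocyte attracting genes divided into 3 that were higher and 3 that were lower. The median log2 fold change (LP-184 minus DMSO) was 3.15 over the T cell attracting genes and -0.08 over the others, beside -0.01 over all 11931 genes tested. With so few genes, the first median is the value of Ccl5, and the second lies midway between Cxcl1 and Cxcl3. The tested genes were those at log2 CPM 0 or more in at least 3 libraries. Calls are from limma with Benjamini-Hochberg adjustment over all tested genes, at an adjusted p under 0.05. By this rule 7 of the 10 members were called higher and 3 lower, where 38.3% of all tested genes were called higher and 40% lower. A call in either direction is thus common in this comparison (78.3% of tested genes), and the sizes of the changes tell the members apart better than the calls. At a change of 2-fold or more, 4 members were called higher (Cxcl10, Ccl5, Ccl20 and Cxcl2) and 1 lower (Ccl7), against 8.08% and 12.6% of tested genes. No member had overlapping groups: 7 lay higher in every LP-184 library and 3 lower, where 38.9% and 40.2% of tested genes did so (79.1% in either direction). Cxcl10, Ccl5 and Ccl7 reached the filter in 5, 4 and 3 of the 6 libraries and the other 7 members in all 6. In RNA from whole cultures, fewer expressing cells and less RNA per cell cannot be told apart.

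Cxcl10, a CXCR3 ligand induced by interferons, changed most. It lies on chromosome 5 (92346638 to 92348889, reverse strand, GRCm38). It stood at 1.07, 0.792 and 1.02 CPM with DMSO and at 21.2, 24.1 and 23.2 CPM with LP-184, in the order of replicates used throughout. The DMSO libraries held 56 of its reads together and the LP-184 libraries 1430. The log2 fold change was 4.44 ± 0.17 (SE, n = 3 each; limma adjusted p = 1.2e-22), rank 8 from the top among 11931 genes.

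Ccl5, which attracts T cells and other leukocytes, was the most variable T cell attracting gene in control cells. Its DMSO values were 0.429, 1.21 and 0.749 CPM, and its LP-184 values were 6.75, 7.33 and 8.02 CPM. The lowest LP-184 library lay well above the highest DMSO library although the DMSO libraries, with 8, 26 and 14 reads, were unequal. The log2 fold change was 3.15 ± 0.26 (SE, n = 3 each; limma adjusted p = 2.9e-13), and it ran from 2.82 without DMSO replicate 1 to 3.48 without DMSO replicate 2. Ccl5 lies on chromosome 11 (83525778 to 83530518, reverse strand).

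Cxcl16, a ligand of CXCR6 that is made as a membrane protein and can be shed, was abundant before treatment and gained the most reads. It stood at 160.1, 166.4 and 160.6 CPM with DMSO and at 293.8, 306.3 and 288.4 CPM with LP-184. The difference between group means, 133.8 CPM, was the largest of the 10 members in absolute terms, yet the log2 fold change was 0.87 ± 0.03 (SE, n = 3 each; limma adjusted p = 3.2e-24). Of all tested genes, 89.4% had a lower fold change. Cxcl16 lies on chromosome 11 (70453983 to 70459984, reverse strand).

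Ccl20, the ligand of CCR6 on T cells of the Th17 kind, B cells and dendritic cells, rose with the T cell attracting genes. DMSO libraries had 1.29, 1.12 and 1.61 CPM and LP-184 libraries 6.48, 6.23 and 7.86 CPM, so the groups were well apart. The log2 fold change was 2.28 ± 0.21 (SE, n = 3 each; limma adjusted p = 4.7e-12). Ccl20 lies on chromosome 1 (83116766 to 83119167, forward strand).

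**Figure D2:**
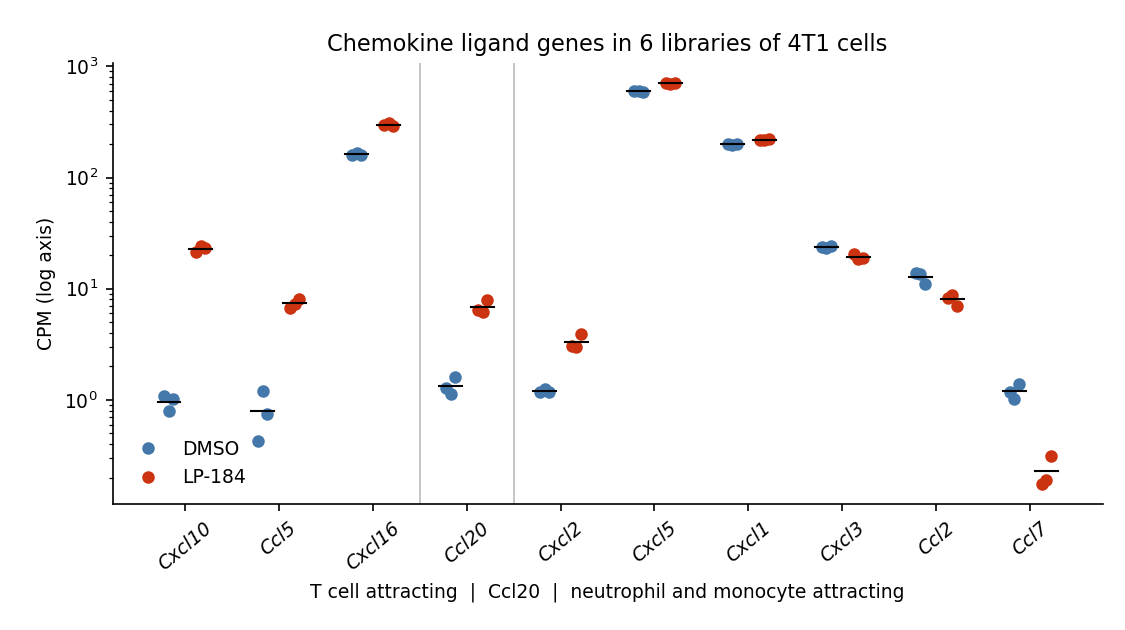
Levels of the 10 chemokine ligand genes in CPM on a log axis, with 1 point per library (DMSO in blue, LP-184 in red) and a line at each group's mean. Cxcl10 goes from a mean of 0.961 to 22.8 CPM, while Cxcl5 and Cxcl1 stay the most abundant neutrophil attracting genes in both groups.

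Among the CXCR2 ligands, which attract neutrophils, the gene at the lowest level rose most and the abundant ones moved little. Cxcl2, on chromosome 5 (90903871 to 90905938), had 1.18, 1.26 and 1.18 CPM with DMSO and 3.07, 2.97 and 3.93 CPM with LP-184. Its log2 fold change was 1.38 ± 0.24 (SE, n = 3 each; limma adjusted p = 4.4e-06). Cxcl5, the most abundant member (chromosome 5, 90759360 to 90761624), had 605.9, 601.4 and 587.5 CPM with DMSO and 707.5, 697.4 and 705.9 CPM with LP-184, a log2 fold change of 0.23 ± 0.02. The difference between its group means, 105.4 CPM, was second to that of Cxcl16. Cxcl1 (chromosome 5, 90891241 to 90893115) had 199.2, 195.3 and 200.3 CPM with DMSO and 216.1, 216.6 and 222.6 CPM with LP-184, a log2 fold change of 0.14 ± 0.03. Groups did not overlap for either gene, but these 2 rises were small: both lie within the quartiles of all tested genes, -0.51 and 0.44. Cxcl3 (chromosome 5, 90786103 to 90789600) went the other way, from 23.9, 23.4 and 24.3 CPM to 20.7, 18.6 and 19.0 CPM, a log2 fold change of -0.30 ± 0.08 (limma adjusted p = 0.00089). Cxcl1, Cxcl2 and Cxcl3 are close paralogs, and the sources used here do not say how reads that fit more than 1 of them were counted, so the small changes of Cxcl1 and Cxcl3 are uncertain.

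The 2 monocyte attracting ligands of CCR2, Ccl2 and Ccl7, both fell. Ccl2 (chromosome 11, 82035571 to 82037453) was at 13.7, 13.5 and 10.9 CPM with DMSO and at 8.32, 8.81 and 6.92 CPM with LP-184. Its log2 fold change was -0.66 ± 0.12 (SE, n = 3 each; limma adjusted p = 1.5e-05). Ccl7, its neighbour (82045712 to 82047525), was at 1.18, 1.03 and 1.39 CPM with DMSO and at 0.175, 0.192 and 0.314 CPM with LP-184. The LP-184 libraries had 4, 4 and 6 reads of Ccl7, and the log2 fold change of -2.01 ± 0.40 (limma adjusted p = 3.3e-05) is understated by the prior count of about 2 reads in the deposited values. The mean CPM was 5.28-fold lower.

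**Figure D3:**
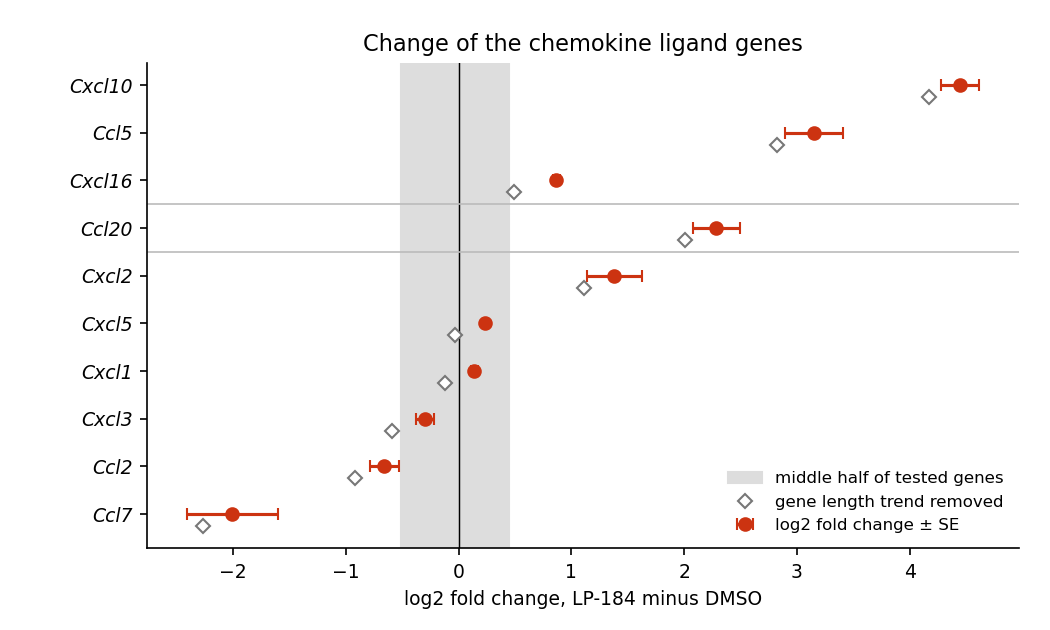
Log2 fold change of each member (LP-184 minus DMSO, red points with SE), the values after removal of the gene length trend (open diamonds) and, in grey, the range between the quartiles of all tested genes. The 3 T cell attracting genes, Ccl20 and Cxcl2 lie to the right of the grey band, Cxcl5, Cxcl1 and Cxcl3 lie inside it, and Ccl2 and Ccl7 lie to its left.

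Fold changes in these libraries fall with gene length, and chemokine genes are short. The members span 1.81 to 6.002 kb, against a median of 21.8 kb over the tested genes with an annotated span. The 2107 tested genes no longer than Cxcl16 had a median log2 fold change of 0.19, with 43.6% called higher and 22.4% called lower. With the length trend removed, Cxcl10 stood at 4.17, Ccl5 at 2.82, Ccl20 at 2.01, Cxcl2 at 1.11 and Cxcl16 at 0.49. Cxcl1 then turned to -0.12 and Cxcl5 to -0.036, so that 5 members were called higher and 4 lower. Of 11462 genes in that fit, 4045 were called higher and 4463 lower. The rises of Cxcl1 and Cxcl5 relative to other genes therefore depend on this choice, while the direction of the other 8 did not.

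Divided by the length of the longest protein-coding transcript, which allows levels of different genes to be compared, the members covered a wide range. With DMSO, Cxcl5 stood at 379.8 ± 6.09 CPM per kb (SD, n = 3), Cxcl1 at 208.0 ± 2.74, Cxcl16 at 60.2 ± 1.30, Cxcl3 at 23.5 ± 0.469 and Ccl2 at 15.6 ± 1.91. Each of these was apart from the next in every library. Ccl5, Ccl7, Ccl20, Cxcl10 and Cxcl2 followed between 1.497 and 0.648 CPM per kb. Within this low group Ccl5 and Ccl7 overlapped, as did Ccl20 and Cxcl10, and Cxcl10 and Cxcl2. With LP-184, Cxcl10 moved from place 9 to place 5 (16.9 ± 1.11 CPM per kb), just below Cxcl3 at 19.1 ± 1.08. Ccl5 at 13.8 ± 1.195 passed Ccl2 at 9.86 ± 1.21, and Ccl7 came last at 0.284 ± 0.0949. Neighbours in this order did not overlap among the LP-184 libraries. With the union of all annotated exons as length, a choice added after the data were seen, Cxcl10 moved from place 10 to place 4 and so passed Cxcl3, at 10.1 against 5.55 CPM per kb.

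The T cell attracting genes held a larger share of the chemokine ligand transcripts with LP-184. The summed level of the 10 members was 692.5 ± 6.25 CPM per kb with DMSO and 852.3 ± 3.23 with LP-184 (SD, n = 3 each). Cxcl5 (mean 379.8 to 446.7 CPM per kb) and Cxcl16 (60.2 to 109.7) contributed most to this difference, followed by Cxcl1 (208.0 to 229.2). With the length trend removed the LP-184 sum was 700.7 ± 2.79, so the rise of the sum depends on that choice. It was applied to the sum after the data were seen. The T cell attracting genes held 8.73%, 9.30% and 8.99% of that sum across the DMSO libraries and 16.1%, 17.1% and 16.2% across the LP-184 libraries. Most of this share was Cxcl16, at a mean of 8.69% with DMSO and 12.9% with LP-184. Cxcl10 went from 0.103% to 1.98% and Ccl5 from 0.216% to 1.62%. Cxcl5 and Cxcl1 kept the bulk, with means of 54.9% and 30.04% under DMSO and 52.4% and 26.9% under LP-184. The shares cannot move independently of each other, since they sum to a whole. With the union of all annotated exons as length, the T cell attracting share was 10.9% and 18.4%. With the length trend removed it was 15.7% ± 0.485 with LP-184, beside 9.01% ± 0.287 with DMSO (SD, n = 3 each).

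**Figure D4:**
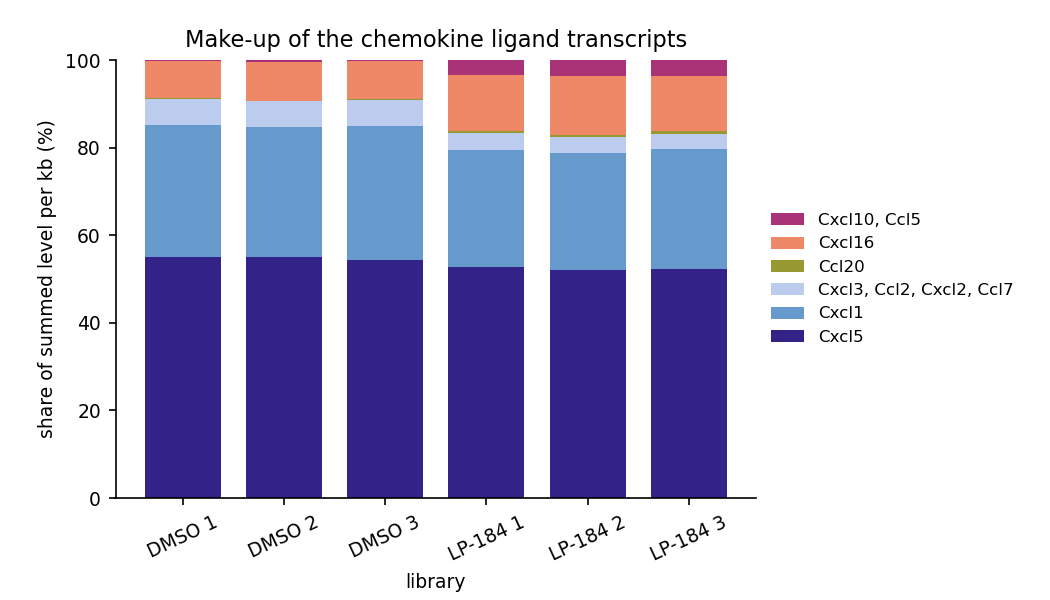
Share of the summed level per kb of the 10 chemokine ligand genes held by each gene or group of genes, in percent, with 1 bar per library. The segments of Cxcl16 and of Cxcl10 with Ccl5 are larger in the 3 LP-184 bars, and Cxcl5 and Cxcl1 fill most of every bar.

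Ratios within a library, on the same per kb scale, show the contrast without scaling between libraries. Of 18 ratios of a T cell attracting to a neutrophil or monocyte attracting gene, 17 were higher in every LP-184 library than in any DMSO library, and the exception was Cxcl16 to Cxcl2. These ratios reuse 9 genes, none of whose groups overlapped, as for 79.1% of all tested genes, so they restate those levels and are not separate evidence. The level of Cxcl10 per unit of Ccl2 was 0.0469, 0.0353 and 0.0560 with DMSO and 1.53, 1.65 and 2.01 with LP-184, so the order of these 2 genes was inverted in every library. Cxcl16 per unit of Cxcl1 moved less, from 0.284, 0.301 and 0.283 to 0.480, 0.499 and 0.457. Cxcl16 per unit of Cxcl2 fell from 93.5, 91.1 and 94.0 to 66.0, 71.0 and 50.5. Within the neutrophil attracting genes the ratios moved as well: Cxcl2 per unit of Cxcl3 went from 0.0270, 0.0294 and 0.0264 to 0.0811, 0.0871 and 0.113.

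The genes lie in clusters, and members of a cluster did not all change alike. On chromosome 5, the starts of Cxcl3, Cxcl1 and Cxcl2 lie within 145 kb of that of Cxcl5, and their log2 fold changes ran from -0.30 for Cxcl3 to 1.38 for Cxcl2. Cxcl1 and Cxcl2, next to each other at 132 and 145 kb, had log2 fold changes of 0.14 and 1.38. Ppbp, a platelet-associated CXCR2 ligand between Cxcl5 and Cxcl3, rose from 2.31 ± 0.298 to 5.52 ± 0.562 CPM (SD, n = 3 each), which is 1.22 ± 0.19 (SE) on the log2 scale. On chromosome 11, Ccl2 and Ccl7 fell together, whereas Ccl5, Ccl6 and Ccl4, 1490 kb or more further along, were called higher.

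**Figure D5:**
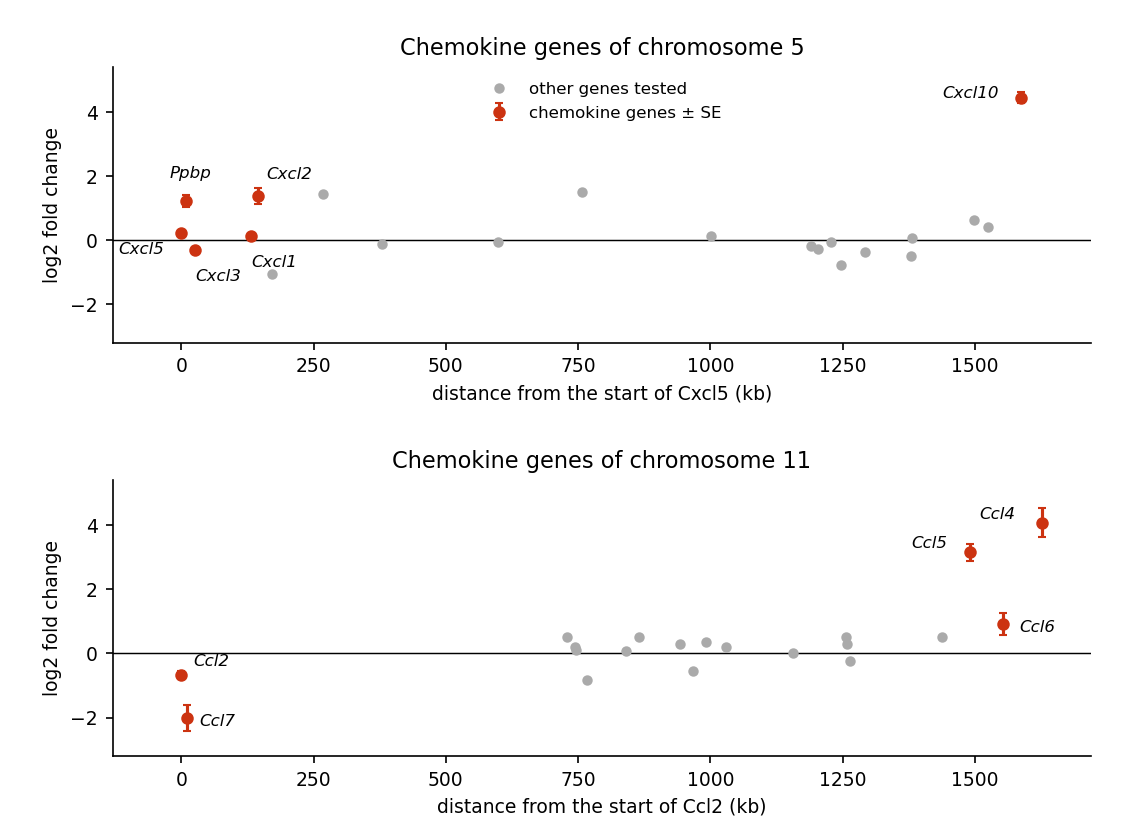
Log2 fold change (LP-184 minus DMSO) of the tested genes against distance in kb from the start of Cxcl5 on chromosome 5 (top) and from the start of Ccl2 on chromosome 11 (bottom), with chemokine genes in red with SE and other genes in grey. Cxcl10, Ccl5 and Ccl4 stand highest, above the genes around them, and Ccl7 stands lowest.

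Beyond the members, 5 of 29 other chemokine ligand genes were in the table and were tested, of which 4 were called higher and 1 lower, beside 38.3% and 40% of all tested genes. With the length trend removed, 2 were called higher and 1 lower, beside 4045 and 4463 of 11462 genes, and Ccl6 and Cx3cl1 lost their calls. The remaining 24 were not analysed here. Ccl4, which attracts T cells and monocytes, had 2, 0 and 0 reads with DMSO and 50, 38 and 40 reads with LP-184. Its reads per library size were 59.9-fold higher (exact 95% interval 16.3 to 500.2, counting error only), and limma gave a log2 fold change of 4.08 ± 0.45 (SE). Ccl6, a ligand of CCR1, was at 0.92 ± 0.35, and its groups overlapped (limma adjusted p = 0.017, with values from 0.00543 to 0.150 over the alternatives). Cx3cl1, the membrane-bound ligand of CX3CR1, and Ccl25, a ligand of CCR9, had log2 fold changes of 0.32 and -0.75, and these 2 were named after their values were seen.

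Of 23 chemokine receptor genes, 2 were in the table, 1 called higher and 1 lower, where 38.3% and 40% of all tested genes were called so. Cxcr3, the receptor of Cxcl10, fell from 11.8, 13.4 and 11.3 CPM with DMSO to 2.28, 1.44 and 3.04 CPM with LP-184, a log2 fold change of -2.44 ± 0.19 (SE, n = 3 each; limma adjusted p = 7.8e-14). The transcripts of the ligand and of its receptor thus moved in opposite directions in the same cultures. Ackr3, a scavenging receptor, was at 0.26 ± 0.04 and at -0.065 with the length trend removed.

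Genes that shed chemokines, trim them or build the heparan sulfate chains that hold them at the cell surface were called lower in 11 of 13 cases and higher in 2, where 40% and 38.3% of all tested genes were called so. With the length trend removed, 7 were called lower and 4 higher, beside 4463 and 4045 of 11462 genes. The lean toward lower calls was thus smaller, and in a list of 13 these counts stand near the share of all genes in that fit. The median change was -0.29 on the log2 scale, and -0.24 with the trend removed, against -0.01 over all tested genes. Adam10, the main protease that releases Cxcl16 from the membrane, fell from 158.7 ± 1.82 to 65.8 ± 0.427 CPM (SD, n = 3 each), a change of -1.27 ± 0.04 (SE) on the log2 scale, as the Cxcl16 transcript rose. Ext1, which elongates heparan sulfate chains, was at -2.93 ± 0.10 and Hs2st1, which sulfates them, at -1.49 ± 0.03. All 3 are long genes, and with the length trend removed they stood at -0.42, -0.67 and -0.24.

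Regulators of the 2 induction routes moved both ways. With the length trend kept, neither list had a larger share of called genes than the 78.3% of all tested genes. Of 24 genes of the NF-kB arm, 12 were called higher and 6 lower (median log2 fold change 0.20), beside 38.3% and 40% of all tested genes. With the length trend removed, 15 were called higher and 5 lower (median 0.27), beside 4045 and 4463 of 11462 genes. In that fit 20 of the 24 were called in either direction, beside 8508 of all 11462 genes, so the share was only slightly larger. Tnf, a cytokine that activates NF-kB, had 2, 0 and 2 reads with DMSO and 76, 48 and 60 with LP-184. Its log2 fold change was 4.21 ± 0.41 (SE) and ran from 1.86 with log2(CPM + 1) to 5.29 with limma voom on the recovered reads. The adaptor Myd88 stood at 1.32 ± 0.06 and the receptor Il1r1 at -1.81 ± 0.14. Of 22 tested genes of the interferon arm, 9 were called higher and 6 lower (median 0.13). For the 21 with an annotated span, removal of the length trend gave 8 higher and 6 lower (median 0.0073). In that fit 4045 and 4463 of 11462 genes were called so. The transcription factors Irf7, Stat2 and Irf9 stood at 4.05 ± 0.23, 1.55 ± 0.11 and 1.48 ± 0.13. Stat2 and Irf9 are known as parts of the complex that binds ISRE motifs. Il1r1 is a long gene and stood at -1.06 with the length trend removed.

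Chemokine transcripts are often short-lived because AU-rich elements built from ATTTA recruit decay factors. Counted over the longest protein-coding transcript, Cxcl1 had 7 copies of ATTTA (7.35 per kb), Ccl20 had 9 (6.35 per kb), Cxcl2 had 11 (5.92 per kb) and Cxcl3 had 5 (4.92 per kb). The median over 10474 tested genes was 0.828 per kb, and 0.229% of them or fewer reached the density of each of these 4. Cxcl5 had 3.17, Cxcl10 had 2.96, Ccl7 had 2.497 and Ccl2 had 2.46 per kb. Cxcl16 with 0.741 per kb and Ccl5 with 0 copies were below the median. Among the 4 densest, the log2 fold changes were 0.14 for Cxcl1, 2.28 for Ccl20, 1.38 for Cxcl2 and -0.30 for Cxcl3. Ccl5, with no copy, was at 3.15. The part of ATTTA copies in these changes was not tested. Of 14 genes that regulate unstable mRNAs, 4 were called higher and 9 lower (median -0.17), where 38.3% and 40% of all tested genes were. With the length trend removed, 5 were called higher and 6 lower, beside 4045 and 4463 of 11462 genes. Zfp36l1, which binds AU-rich elements and promotes decay, was at 1.44 ± 0.05 (SE), Zc3h12a, an endonuclease that cleaves cytokine mRNAs, at 0.72 ± 0.11, and Auh, named for its binding to AU-rich RNA, at -1.66 ± 0.11 and at -0.88 with the length trend removed.

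The expression pattern of Cxcl10 over the 6 libraries was shared by many genes, as a step between groups gives a high correlation. Of 9394 genes compared, those whose higher group had a mean log2 CPM of at least 3, 1192 besides the members had a Pearson r over 0.99 with Cxcl10. The 5 nearest were Rrp1, Skp1, Zmynd19, Foxa1 and Adh7, with r from 0.9997 to 0.9999, and their log2 fold changes ran from 0.15 for Skp1 to 2.96 for Foxa1. The 6 points share the split between DMSO and LP-184.

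Markers of the labelled cell type and of other cells were checked because leukocytes also make chemokines. Of 9 epithelial carcinoma markers, 8 were in the table, of which 5 (Krt14, Epcam, Cdh1, Cldn3 and Cldn4) were called higher and 3 (Krt7, Krt8 and Krt18) lower, beside 38.3% and 40% of all tested genes. The summed level of the 8 markers was 5457 to 5494 CPM with DMSO and 4284 to 4320 CPM with LP-184, and Krt7 alone differed by -1221 CPM. Of 15 leukocyte markers, 5 were in the table, and the others, among them Ptprc, Cd3e, Cd3d, Nkg7, Itgam, Adgre1, Csf3r, S100a9 and Ly6g, were not analysed here. The summed level of the 5 was 14.6 to 15.9 CPM with DMSO and 61.6 to 73.6 CPM with LP-184, mostly Csf1r (1.98 ± 0.475 to 34.5 ± 3.78 CPM) and Cd68 (10.2 ± 0.547 to 31.3 ± 3.36 CPM, SD, n = 3 each). Cd79a had 2 reads with DMSO and 58 with LP-184, S100a8 was lower, and Lyz2, a myeloid marker, had 96 reads with DMSO and 0 with LP-184. Of 9 fibroblast and endothelial markers only Pdgfra was in the table, at 6.37 to 7.62 CPM with DMSO and 8.12 to 10.3 CPM with LP-184. The part of these markers in the chemokine changes was not tested.

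The authors' deposited table of their own comparison gave the same direction for all 10 members, with log2 fold changes of 4.57 for Cxcl10, 3.16 for Ccl5, 2.36 for Ccl20 and -2.38 for Ccl7. For these 4 genes the values of the fit used here were 4.44, 3.15, 2.28 and -2.01.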

How the data were processed

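The deposited table gives log2 CPM by the authors for 12656 genes in 6 libraries, its control columns being read as DMSO. Tools listed in the submitters' processing notes are edgeR, featureCounts, fastp, STAR 2.7 and Subread 2.0, with mm10 as a build. The sources used here give no gene filter, annotation or strand setting. A second deposited table by the authors gives log2 fold changes with a p-value and an adjusted p-value per gene, without naming the test. Among the deposited log2 CPM, 0 reads has the value -3.34 in every library. With that prior (about 2 reads, scaled to library size) removed, 100% of values were whole reads (tolerance 1e-06 reads), which gave CPM and reads. The library sizes behind the CPM were 0.984 to 0.994 times the summed reads with DMSO and 1.007 to 1.016 times with LP-184.

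The deposited log2 CPM were fitted with limma 3.58.1 in R 4.3.3 (2 groups, two-sided moderated test whose variance prior followed mean expression) over 11931 genes at log2 CPM 0 or more in at least 3 libraries, with Benjamini-Hochberg adjustment. The fit was also run on simulated counts in which few genes changed, unlike in these data, so that run does not assess the calls made here. Members, gene lists and alternatives were chosen with earlier results of these data known. All members are named. In each other list the 3 called genes with the largest absolute log2 fold change are named, and for Cxcl10 the 5 genes, predicted genes aside, with the highest Pearson r. Positions, spans and transcript lengths come from GENCODE M21 on GRCm38, matched by symbol (95.9% of genes). For the length trend, fold change was smoothed on log10 gene span by loess (smoothing span 0.3), and the curve was taken off the LP-184 libraries. Summaries used scipy 1.17.1, numpy 2.4.6 and pandas 2.3.3 under Python 3.11.15. Other parts of the study were not analysed here.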

Additional observations from a re-analysis of the deposited data

How the results depend on the processing

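Of 178 values of the 10 members over 18 alternatives, 176 kept their direction and call. The 2 others were with the length trend removed, Cxcl1 at -0.12 (adjusted p = 0.00043) and Cxcl5 at -0.036 (adjusted p = 0.105), where their adjusted p otherwise stayed under 0.05. That setting also turned Ackr3 to -0.065, left 3 of 5 other chemokine ligand genes and 1 of 2 receptor genes called, and moved the median log2 fold change of the T cell attracting genes to 2.82 and of the neutrophil and monocyte attracting genes to -0.36. The T cell attracting median was 2.24 with log2(CPM + 1) and 3.29 with quantile normalization. Leaving out 1 library at a time, it ran from 2.82 to 3.48, and all 10 members stayed called in each case. The stricter filter (log2 CPM 2 or more in at least 3 libraries) left out Cxcl2 and Ccl7, so it gives no second median, and left 3 other chemokine ligand genes. Ccl6 lost its call with the length trend removed (adjusted p = 0.150), without the variance trend, without DMSO replicate 1, without LP-184 replicate 3 and at 0.01. No pairing by replicate number showed in the values: deviations of same-numbered libraries correlated at -0.02 to -0.01. Whether same-numbered samples were handled together is not stated in the labels. With the replicate number as a block, 9291 genes were called against 9341, and all 10 members. The low read numbers of Ccl7 with LP-184 and of Ccl5, Cxcl10, Ccl4 and Tnf with DMSO limit the precision of their fold changes.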
